A study of Mus musculus with 2 samples.

Results

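The 10 genes described here form the core of the Notch pathway as a T cell uses it. They are the receptors *Notch1*, *Notch2* and *Notch3*, the receptor protease *Adam10*, the adaptor *Numb*, the nuclear mediators *Rbpj*, *Maml1* and *Maml2*, and the target genes *Hes1* and *Dtx1*. They were chosen by symbol, not by level, but with earlier results of these data known. All 10 were found among the 48321 genes counted in both libraries.

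Notch receptors are cut at the cell surface when a ligand on a neighbouring cell pulls on them, first by ADAM10 and then within the membrane by γ-secretase. The freed intracellular part enters the nucleus, binds the DNA-binding protein RBPJ together with a Mastermind-like coactivator, and turns on genes such as *Hes1* and *Dtx1*. In the thymus, NOTCH1 signalling commits progenitors to the T lineage and supports early CD4-CD8- (double negative) thymocytes, and it is known to decline once the pre-TCR is expressed.

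RNA-seq was performed on mature thymocytes from mice called MHC-II0:CD8ab Tg, on a C57Bl/6 background, in 2 replicates (1 and 2) of this single group. By the study's methods they carried I-Ab-/-, Cd4-Cre, Cd8 Δab/Δab and the *Rosa26* alleles 8a and 8b. They lack MHC class II because of the I-Ab deficiency, both copies of their endogenous *Cd8a* and *Cd8b1* genes are disrupted, and CD8α and CD8β are made instead from cDNAs in the *Rosa26* locus once Cd4-Cre, driven by *Cd4* regulatory sequences, has removed a stop sequence. CD4- cells were sorted from the mature gate (CD24lo TCRβhi); the sample titles call them CD4-CD8-, whereas the cell type label says CD8+. Age and the number of animals behind each library are not given in the sources used here, and wild-type libraries were not analysed here, so no genotypes are compared.

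Replicate 1 had a total of 16732644 counts on genes and replicate 2 one of 16245849. A gene at or below a floor of 3 counts was not taken as detected. This floor corresponds to 0.179 and 0.185 CPM (counts divided by the library total, on the usual scale). All 10 mature T cell markers were at or above 1 CPM in both libraries (4259 and 3963 CPM summed), including *Cd8b1* with 12969 and 12762 counts. *Cd8a* had 2647 and 2784 counts. Whether these *Cd8* reads came from the cDNAs cannot be read from gene counts, and neither can the source of the 395 and 292 counts on *H2-Ab1*, the I-Ab gene. Of the 9 double negative markers, 5 reached 1 CPM in both libraries (122.6 and 146.2 CPM summed, most of it *Cd44*), while *Ptcra*, the pre-TCR chain, had 2 counts in each. *Cd4* had 12 and 27 counts. Of the 8 double positive markers 5 reached 1 CPM (200.1 and 216.5 CPM summed, mostly *Themis*), and so did 4 of 4 γδ T cell markers (23.2 and 24.2 CPM). Of the 6 B cell markers 1 did (13.6 and 15.5 CPM, mostly *Cd79b* with 196 and 227 counts), while *Pax5* had 1 and 0 counts. Of the 7 myeloid markers 2 did (12.4 and 13.9 CPM, mostly *Csf1r* with 163 and 191 counts), while *Lyz2* had 0 and 2 counts. Of the 9 epithelial and stromal markers 2 did (81.7 and 73.5 CPM, mostly *Pecam1*). The libraries differed in sex-linked genes, with 34 and 25266 counts on *Xist* and 2450 and 0 on *Ddx3y*, so any other difference between the libraries cannot be told apart from this one.

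Most of the pathway was expressed in these cells, with a wide gap between its members. Of the 10 genes, 8 had at least 1 CPM in both libraries, compared with 26.2% of all genes listed, and these 8 lay between 29.4 and 369 CPM. The other 2, *Notch3* and *Hes1*, lay below 1 CPM in both. Bulk counts cannot tell fewer cells that express a gene from less RNA per cell. Levels of a single gene are given in CPM, and levels of different genes are compared in TPM, that is, per kb of annotated exon and scaled to the same sum in each library.

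**Figure D1:**
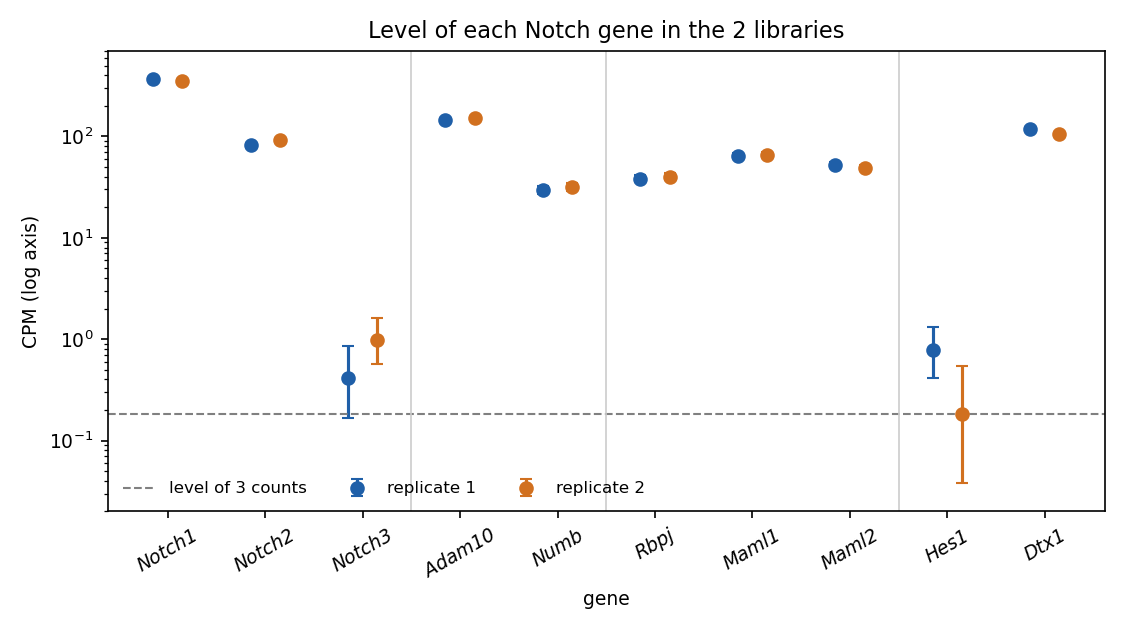
CPM (log axis) of each of the 10 genes in replicate 1 (blue) and replicate 2 (orange), with exact Poisson 95% intervals; grey vertical lines separate receptors, processing genes, nuclear mediators and targets. *Notch3* and *Hes1* sit below 1 CPM, and the other 8 genes lie between 29.4 and 369 CPM with intervals about as small as the symbols.

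Among the receptors, *Notch1* was the most abundant. It had 369 CPM in replicate 1 and 354 CPM in replicate 2 (361 ± 10.6, mean ± SD, n = 2), from 6167 and 5745 counts. *Notch1* lies on the minus strand of chromosome 2 (chr2:26457903-26516663, GRCm38), and its longest coding transcript has 34 exons. Its level of 82.7 ± 1.09 TPM exceeded that of 88.0% of the genes with at least 10 counts. *Notch2*, a widely expressed receptor (chr3:98013527-98150361, plus strand), had 81.7 and 92.0 CPM (86.9 ± 7.30). Per kb, *Notch1* exceeded *Notch2* 3.42-fold in replicate 1 and 2.91-fold in replicate 2, so the receptors kept the same order in both libraries. *Notch1* made up 76.7% and 73.5% of the summed TPM of the 4 Notch receptors, and *Notch2* 22.4% and 25.3%.

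*Notch3* and *Notch4* together made up little of the receptor total. *Notch3*, which acts together with the pre-TCR in early thymocytes (chr17:32120820-32166852, minus strand), had 7 and 16 counts, that is 0.418 CPM (exact Poisson 95% interval 0.168 to 0.862) and 0.985 CPM (0.563 to 1.60). The intervals overlap, and *Notch3* contributed only 0.153% and 0.360% of the receptor TPM. *Notch4*, a receptor best known from blood vessels, had 35 and 37 counts and contributed 0.768% and 0.836%. *Notch3* was therefore the lowest of the 4 receptors per kb in both libraries.

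The sequences before the RefSeq starts of *Notch1* and *Notch3* are shown because these were the receptors with the highest and the lowest level. RefSeq promoter windows (GRCm38.p6) were found for 9 of the 10 genes, not for *Hes1*. The 250 bases before the start were searched on both strands for the GC box GGGCGG, and the windows are printed 5′ to 3′ on the gene's strand up to the first exon annotated by GENCODE, with GC boxes (CCGCCC on the other strand) in capitals.
Notch1 chr2:26503825-26504072 (minus strand): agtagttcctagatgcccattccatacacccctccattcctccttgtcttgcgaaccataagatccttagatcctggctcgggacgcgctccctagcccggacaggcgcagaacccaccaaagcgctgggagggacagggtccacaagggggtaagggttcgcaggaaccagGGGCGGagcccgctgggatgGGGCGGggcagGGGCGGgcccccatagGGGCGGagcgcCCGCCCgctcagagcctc
Notch3 chr17:32166891-32167140 (minus strand): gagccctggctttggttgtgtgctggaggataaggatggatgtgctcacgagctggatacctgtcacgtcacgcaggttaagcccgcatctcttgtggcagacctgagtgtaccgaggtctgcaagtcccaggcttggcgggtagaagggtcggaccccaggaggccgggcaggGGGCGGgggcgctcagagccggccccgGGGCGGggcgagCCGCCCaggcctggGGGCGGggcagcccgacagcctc
The *Notch1* window held 5 GC boxes and the *Notch3* window 4, where 32.7% of all 32851 windows held at least 1. Their GC contents were 66.0% and 68.8%, against a median of 52.4%, and their CpG observed to expected ratios 0.588 and 0.595, against a median of 0.374. GC boxes were not particular to these windows. Those of *Notch2* (5), *Adam10* (3), *Dtx1* (3), *Maml1* (2) and *Numb* (3, 0 and 1) held some too, and those of *Rbpj* and *Maml2* held 0. Over the windows of the 9 genes GC content ran from 41.6% to 74.0% and the CpG ratio from 0.156 to 1.058. The *Notch1* window lies within the GENCODE gene, which has further starts upstream. Per kb, *Notch1* exceeded *Notch3* 501-fold in replicate 1 and 204-fold in replicate 2. A count of letters in a window is a description, and promoter activity was not measured.

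The ligands, which signal from neighbouring cells, were low or not detected. *Dll4*, the ligand that thymic epithelium presents to progenitors, had 0 and 2 counts, and *Dll3* had 0 and 3. *Dll1* had 5 and 3 counts, *Dlk1*, a related non-canonical ligand, had 0 in both, and *Jag1* had 13 and 14. *Jag2* was the highest of them, at 1.30 and 1.49 TPM. Of the epithelial markers, *Foxn1* (1 and 0 counts), *Krt5* (1 and 1) and *Krt8* (1 and 3) were at or below 3 counts, while *Psmb11* had 9 and 11 and *Epcam* 50 and 53. Their part in the ligand counts was not tested. The fringe glycosyltransferases, which modify receptors and set their response to the 2 ligand families, were abundant. *Lfng* had 452 and 418 TPM and *Mfng* 124 and 128 TPM, and *Lfng* made up 75.4% and 72.9% of the fringe TPM.

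**Figure D2:**
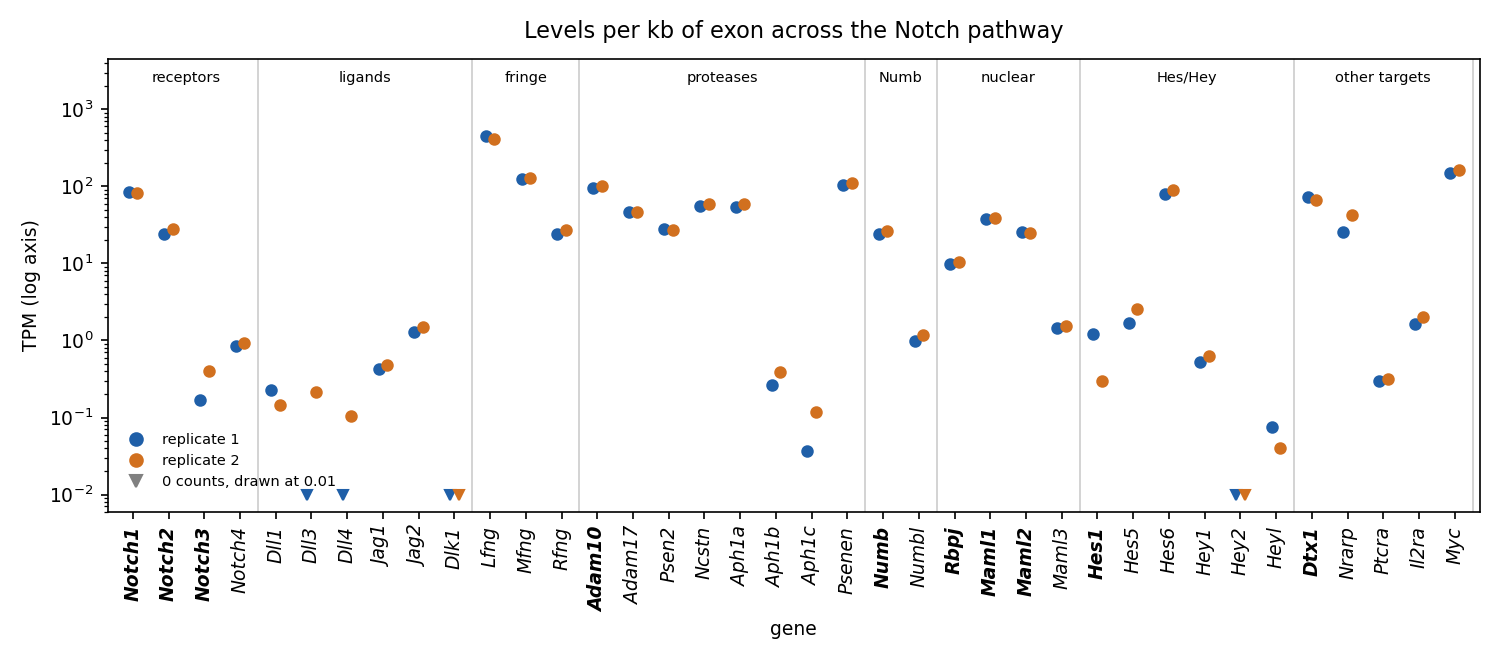
TPM (log axis) in replicate 1 (blue) and replicate 2 (orange) of Notch pathway genes grouped by role, with the 10 genes described here in bold; triangles mark 0 counts, drawn at 0.01. The ligands lie at or below 1.49 TPM, whereas *Notch1*, *Notch2* and the protease genes drawn here other than *Aph1b* and *Aph1c* lie at or above 24.4 TPM.

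*Adam10* and *Numb* act on the receptor before it reaches the nucleus. *Adam10* encodes the protease that makes the ligand-dependent cut (chr9:70678997-70780229, plus strand) and had 145 and 153 CPM (149 ± 5.85). At 94.9 and 103 TPM it was the highest of the 10 genes per kb of all exons. This lay above 90.2% of the genes with at least 10 counts. It exceeded *Adam17*, a related protease that can cut Notch independently of ligand, 2.03-fold and 2.23-fold per kb. *Numb*, an adaptor that promotes endocytosis and loss of Notch from the membrane (chr12:83794034-83921934, minus strand), had 29.4 and 31.6 CPM (30.5 ± 1.54). Its 24.2 and 26.6 TPM were 24.2-fold and 22.7-fold above its relative *Numbl*, which had 45 and 50 counts.

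All 4 parts of the γ-secretase complex were expressed. *Psenen* had a mean of 109 TPM, *Ncstn* 57.0, *Aph1a* 56.6 and *Psen2*, a catalytic subunit, 27.7. The paralogs *Aph1b* (7 and 10 counts) and *Aph1c* (1 and 3) were near the limit, and 18.4% of the 50-base stretches of each also occur in the other, so the split between these paralogs is uncertain. *Aph1a* and *Psenen* share 39.5% and 23.4% of such stretches with other genes, so their counts are uncertain too. *Furin*, which makes the first cut during receptor maturation, had a mean of 21.9 TPM.

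The nuclear mediators differed less among themselves than the receptors did. *Rbpj*, the DNA-binding subunit (chr5:53466152-53657362, plus strand), had 38.4 and 39.9 CPM (39.2 ± 1.03). *Maml1* (chr11:50255634-50292311, minus strand), a coactivator that recruits histone acetyltransferases, had 64.0 and 65.8 CPM (64.9 ± 1.27), and its relative *Maml2* (chr9:13297957-13709388, plus strand) had 52.3 and 49.1 CPM (50.7 ± 2.29). *Maml1* exceeded *Maml2* in both libraries, by 1.46-fold and 1.60-fold per kb. *Maml3* was low, with 80 and 79 counts, so that *Maml2* was 17.4-fold and 16.03-fold higher per kb. *Maml1* contributed 58.0% and 60.1% of the Mastermind TPM, *Maml2* 39.7% and 37.5%, and *Maml3* 2.28% and 2.34%.

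*Rbpj* was the lowest of the nuclear mediators per kb among the 10 genes, at 9.72 and 10.3 TPM, and *Notch1* was 8.59-fold and 7.94-fold above it. Its annotated exons span 12750 bases against 5485 for its longest coding transcript, and with the latter length its mean level was 17.1 TPM in place of 10.02. It also shares 10.6% of its 50-base stretches with other genes, among them the pseudogene *Rbpj-ps3*. *Rbpjl*, a relative of *Rbpj*, had 0 counts in both libraries. Of the 12 nuclear cofactors compared with them, 11 reached 1 CPM in both libraries, and the corepressor *Ctbp1* was the highest at 177 TPM (mean).

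The sequence bound by RBPJ has the core TGGGAA, and the windows of *Rbpj* and *Maml2* are shown because only these 2 of the 9 genes had it in the 250 bases before a start. The letters were searched on both strands and are in capitals (TTCCCA where on the other strand), and the *Rbpj* window is printed only up to its first annotated exon.
Rbpj chr5:53590096-53590213 (plus strand): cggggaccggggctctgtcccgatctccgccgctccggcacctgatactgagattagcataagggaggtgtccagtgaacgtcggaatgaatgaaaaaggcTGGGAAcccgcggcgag
Maml2 chr9:13662210-13662459 (plus strand): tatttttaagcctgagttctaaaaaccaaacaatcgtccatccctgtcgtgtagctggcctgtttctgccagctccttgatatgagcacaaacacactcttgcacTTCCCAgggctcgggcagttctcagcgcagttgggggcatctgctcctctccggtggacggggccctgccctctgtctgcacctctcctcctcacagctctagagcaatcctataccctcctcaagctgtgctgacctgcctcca
In *Rbpj* the core began 149 bases before the start, and in *Maml2* 145 bases before the start of the window printed. Both printed windows lie within the GENCODE genes, downstream of where these begin. The other *Maml2* window, which ends where the gene begins, held no match. A further match in *Rbpj*, 65 bases before the start, lies in annotated exon and is not printed. The core was found in 21.6% of all 32851 windows, and no printed match overlapped a GC box or an E-box (CANNTG). A match is only a string of letters, and binding was not measured.

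**Figure D3:**
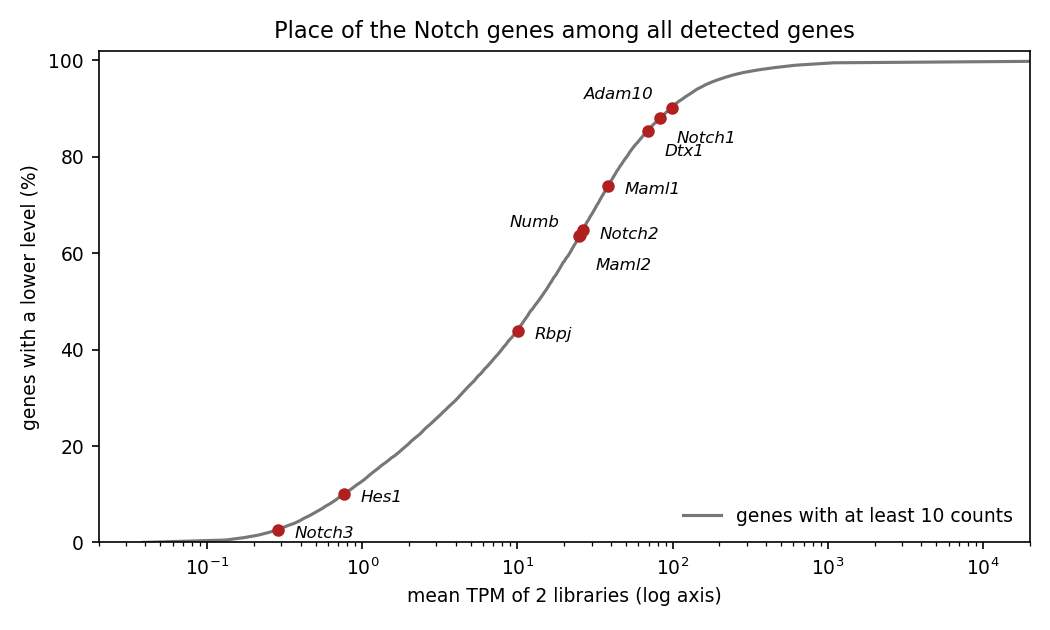
Mean TPM of the 2 libraries (log axis) against the percentage of genes with a lower mean TPM, among genes with at least 10 counts (grey line); red points mark the 10 Notch genes. *Adam10*, *Notch1* and *Dtx1* lie above 85.4% of genes or higher, whereas *Hes1* and *Notch3* lie above 10.1% and 2.60%.

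The direct target genes *Dtx1* and *Hes1* lay far apart in level. *Dtx1*, a ubiquitin ligase gene induced by Notch (chr5:120680202-120711927, minus strand), had 117 and 106 CPM (112 ± 8.44). Its 71.9 and 66.1 TPM lay above 85.4% of the genes with at least 10 counts. *Hes1*, which encodes a transcriptional repressor and is a classical target (chr16:30064384-30067796, plus strand), had 13 and 3 counts. This is 0.777 CPM in replicate 1 (exact Poisson 95% interval 0.414 to 1.33) and 0.185 CPM in replicate 2 (0.0381 to 0.540), the latter at the limit of 3 counts. *Dtx1* exceeded *Hes1* 58.5-fold in replicate 1 and 221-fold in replicate 2 per kb, so the gap was large in both while its size rested on a few *Hes1* reads.

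Other genes of both target families were measured at levels above and below these. *Hes6*, which encodes an antagonist of HES1, had 78.6 and 90.5 TPM and made up 95.7% and 96.3% of the Hes and Hey TPM, where *Hes1* made up 1.496% and 0.318%. *Hes5* had 12 and 17 counts, *Hey1* 9 and 10, *Heyl* 2 and 1, and *Hey2* had 0 in both libraries. Within the Deltex family *Dtx1* held 25.8% and 22.5% of the TPM and was exceeded by *Dtx3l*, which acts in the DNA damage response, with 52.5% and 52.4%. *Dtx3* held 16.2% and 18.8%, *Dtx2* 5.01% and 5.36%, and *Dtx4* 0.463% and 0.912%.

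A further 15 genes were compared as Notch targets or relatives of targets, a list made for this report. Of these 15, 9 reached 1 CPM in both libraries, among them *Hes6*. *Tcf7*, a transcription factor of T cell commitment that mature T cells also use, was the highest at 1042 and 1022.5 TPM. *Cd3g*, a TCR subunit, had 612 and 563 TPM, and *Myc* had 151 and 165 TPM. *Ptcra*, in contrast, had 2 counts in each library, and *Il2ra*, the IL-2 receptor α chain of early thymocytes, had 49 and 56. *Nrarp*, a feedback inhibitor of Notch, had 20.6 and 33.1 CPM, but 77.3% of its 50-base stretches also occur in *Gm38287* (278 and 399 counts), so its level is uncertain. The 15 genes ranged from 0 to 1032 TPM (mean).

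Ordered by mean TPM, the 10 genes were *Adam10* (98.8), *Notch1* (82.7), *Dtx1* (69.0), *Maml1* (38.3), *Notch2* (26.3), *Numb* (25.4), *Maml2* (25.04), *Rbpj* (10.02), *Hes1* (0.764) and *Notch3* (0.284). Neighbours were taken as separate where the gene above was higher in both libraries than the gene below in either. By this rule *Notch2* and *Numb* were not separate, nor *Numb* and *Maml2*, nor *Hes1* and *Notch3*. The order is a description, since an exact permutation test of 2 against 2 values cannot give a p below 0.333. With the longest coding transcript as the length, *Notch1* came before *Adam10* and *Numb* before *Notch2*, and the rest of the order stayed.

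The replicates were compared to see how firmly each level is fixed. None of the 10 genes differed at least 2-fold between the libraries at an adjusted p under 0.05 (exact binomial test over 15949 genes), against 1.52% of the genes tested. Without the fold limit 2 of 10 passed, against 16.3% of all genes tested, and 4 of 10 had an unadjusted p under 0.05, against 27.7%. edgeR's exact test, run at an assumed biological variation (CV) of 0.1, gave 0 of 10 genes at an adjusted p under 0.05, against 0.464% of the genes tested. The median absolute log2 ratio was 0.10 over the 10 genes and 0.17 over all genes tested. The median level of the 10 genes was also higher, at 25.8 against 13.5 TPM, and genes of like level were not compared. The binomial and edgeR tests compare the libraries, not conditions. The binomial p-values measure how far 2 counts depart from counting error, and those of edgeR allow for the assumed CV as well. By their *Xist* and *Ddx3y* counts the libraries do not come from the same single animal, and neither the labels nor the methods say how many animals gave each.

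*Notch2* was 1.13-fold higher in replicate 2 (95% interval 1.05 to 1.21, adjusted p = 0.0135, exact binomial test). With library sizes from TMM its adjusted p was 0.295. *Dtx1* was lower in replicate 2, with a ratio of 0.898 (0.842 to 0.959, adjusted p = 0.0115), and this passed also with TMM sizes (adjusted p = 4.31e-05). *Notch1*, with a ratio of 0.959 (0.925 to 0.995), had an adjusted p of 0.110 by totals and of 9.87e-06 with TMM sizes. Which of these receptors passed thus depended on the library size used. *Hes1* had the largest ratio in size, 0.238 (0.0434 to 0.865, adjusted p = 0.101), followed by *Notch3* with 2.35 (0.916 to 6.77, adjusted p = 0.207), and neither passed. The remaining 5 genes had ratios between 0.938 and 1.07, and *Rbpj* and *Maml1* changed from slightly above 1 to slightly below 1 with TMM or DESeq2 sizes.

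**Figure D4:**
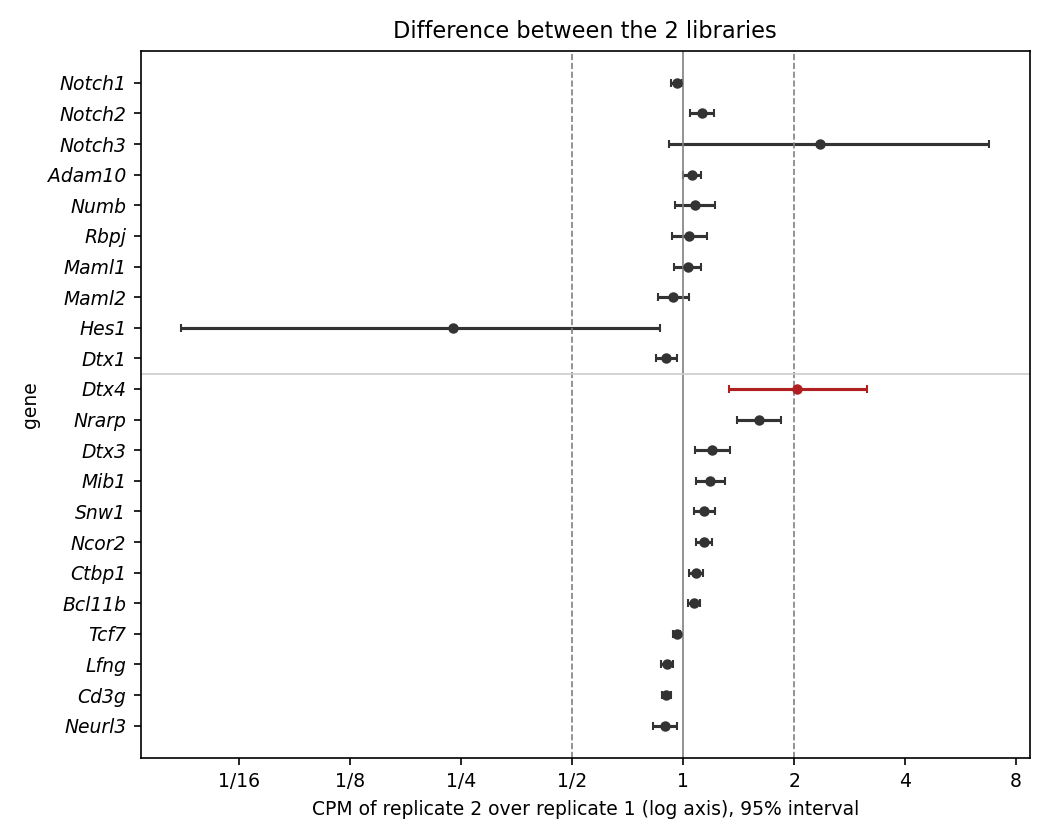
CPM of replicate 2 over replicate 1 (log axis) with 95% intervals for the 10 Notch genes (above the line) and for the 12 other pathway genes with an adjusted p under 0.05; dashed lines mark 2-fold and red marks a gene called at 2-fold. Of the 10 genes only *Hes1* and *Notch3* have estimates beyond 2-fold, with wide intervals, and *Dtx4* alone is red.

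Of the 59 other pathway genes, 44 had at least 1 CPM in both libraries, 9 were at or below 3 counts in both, and 49 could be tested. *Neurl1a*, an E3 ligase gene with 0 and 1 counts, completes these 9 together with *Dll3*, *Dll4*, *Dlk1*, *Aph1c*, *Rbpjl*, *Hey2*, *Heyl* and *Ptcra*. *Dtx4*, another Deltex ligase, was the only one called, with 35 and 69 counts (2.03-fold higher in replicate 2, adjusted p = 0.00593, exact binomial test), and with TMM sizes its ratio was 1.93. Without the fold limit 12 passed, 8 higher in replicate 2 and 4 higher in replicate 1. The largest of these after *Dtx4* was *Nrarp*, 1.60-fold higher in replicate 2 (1.40 to 1.84, adjusted p = 3.08e-10), a gene of uncertain counts as given above. Among those lower in replicate 2, *Lfng* had a ratio of 0.904 and *Cd3g* one of 0.899.

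Overlapping annotation bears on some of these counts, since the library kit does not mark strand and the counting setting is not given in the sources used here. *Notch1* shares 1068 exon bases with the opposite-strand gene *0610009E02Rik* (480 and 391 counts) and 414 with *Gm13568* (125 and 109 counts). *Notch3* shares 488 exon bases with antisense *Gm17276*, which had 1 and 4 counts, and *Notch2* 541 bases with *Gm42820* (8 and 7 counts). *Maml1* shares 135 bases with antisense *Gm26542* (23 and 17 counts), *Numb* 166 with *Gm46367*, and *Maml2* overlaps *Gm22643*, which had 0 counts. *Rbpj* shares stretches of sequence with other genes but no exon bases. *Adam10* and *Hes1* share no 50-base stretch with any other gene, and *Dtx1* shares 0.0952% of them.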

How the data were processed

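RNA was poly(A)-selected, and single-end libraries were sequenced with 50-base reads. Reads were mapped with TopHat2 2.1.1 onto mm10 (GRCm38) and counted with HTSeq 0.6.1, per the submitters' processing notes, and the authors deposited counts per gene as whole numbers without normalization. The annotation and strand setting used for counting are not given in the sources used here. Lines for unassigned reads, which held 59.4% and 58.8% of uniquely aligned reads, were left out of the totals. Reads on no annotated feature alone made up 55.9% of uniquely aligned reads in each library. The part of the strand setting in this share was not tested.

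Levels were computed as CPM of the total on genes, and as TPM over the union of exons in GENCODE M21, which held 46394 of the 48321 symbols. Poisson intervals and the 3-count floor describe counting error alone, because the reads carry no molecular identifiers and PCR copies cannot be set apart. The libraries were compared gene by gene with a two-sided exact binomial test on genes with at least 10 counts summed, with Benjamini-Hochberg adjustment over all of them (scipy 1.17.1, statsmodels 0.14.6, Python 3.11.15). A call needed a 2-fold ratio and an adjusted p under 0.05. Alternatives were TMM and edgeR's exact test (edgeR 4.0.16), DESeq2 1.42.0 size factors (R 4.3.3), other count minimums, other lengths, totals without ribosomal and mitochondrial RNA, and each replicate left out.

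All 10 genes are named, and of the 59 other pathway genes at least the highest per kb of each list, those at or below 3 counts in both libraries and those that differed. The members and lists were chosen with earlier results of these data known. Promoter windows are from RefSeq (GRCm38.p6).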

Additional observations from a re-analysis of the deposited data

How the results depend on the processing

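None of the 10 genes was called under any setting tried. The number of all genes called moved from 242 to 55 with at least 100 counts summed and to 60 with edgeR's exact test at an assumed biological variation (CV) of 0.1. Of the 242 genes, 92 were higher in replicate 1 and 150 in replicate 2, while with TMM sizes 99 and 98 were (197 in all), and with DESeq2 sizes 98 and 104 (202 in all). With either the longest annotated or the longest coding transcript as the length, the ratio of *Notch1* to *Notch2* per kb was 4.62 in place of 3.16, and that of *Adam10* to *Adam17* 1.42 in place of 2.13. That of *Maml1* to *Maml2* stayed within the spread between replicates. TPM moved by more than 1 SD for 7 of 10 genes with either length, and CPM for 8 of 10 with totals that leave out 392 ribosomal and mitochondrial RNA genes (15.2% and 12.2% of counts), all upwards. A mean of 2 replicates lies within 1 SD of each, so leaving one out is no test of it. The same 8 genes passed 0.5, 1 and 5 CPM in both libraries. No paired analysis was possible because the libraries form a single group. Depth limits *Notch3* and *Hes1*, with 7 to 16 and 3 to 13 counts.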

Other observations

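*Adam10* was set beside the other genes named Adam, a list chosen after its values were seen. Of 33 such genes, 22 were at or below 3 counts in both libraries and 8 had at least 1 CPM in both. *Adam10* made up 41.2% and 44.9% of their summed TPM. *Adam19*, a metalloprotease gene of the same family, followed with 33.1% and 28.3% (2814 and 2264 counts), and *Adam17* with 20.3% and 20.2%. *Adam9* held 3.03% and 3.58%, and the other genes less.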
